A study of Mus musculus with 36 samples.

Results

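The report covers the DNase I hypersensitive sites (DHS, short stretches of open chromatin cut readily by the enzyme DNase I) at 10 mouse genes that set how much glucose and amino acid a cell takes up. A DHS was taken when it overlapped the GENCODE vM21 body of Slc2a1, Slc2a3, Slc2a6, Hk1, Hk2, Txnip, Nr3c1, Cnr2, Slc7a5 or Slc3a2 extended by 10 kb on each side, which gave 69 of the 52788 DHS in the table. The numbers per gene were 7 for Slc2a1, 10 for Slc2a3, 3 for Slc2a6, 8 for Hk1, 8 for Hk2, 4 for Txnip, 11 for Nr3c1, 8 for Cnr2, 5 for Slc7a5 and 5 for Slc3a2. No DHS was listed for more than 1 of the genes, and all 10 genes had a DHS within 1000 bp of one of their own transcription starts in the basic set of that annotation, called an own start here.

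The study followed the mouse pre-B cell line B3 after the transcription factor Ikaros was sent to the nucleus, which moves these cells from a dividing to a resting, differentiating stage. One B3 line had been transduced with an MSCV retrovirus carrying HA-tagged wild type Ikaros fused to the hormone-binding domain ERt2, an IRES and GFP (the Ikaros line). The control line had been transduced with the same kind of vector carrying ERt2, the IRES and GFP. Transduced cells were sorted for GFP, 4-hydroxytamoxifen (4-OHT, 0.5 uM) was given to both lines, and cells were collected at 0, 2, 6, 12, 18 and 24 h. Each of the 12 groups had 3 libraries, numbered 4, 5 and 6 for batches 11, 12 and 13, which made 36 in all. The labels name the drug for the 0 h libraries as well, whereas the study's methods state that 0 h cells got none and were collected apart from the other times, so that time and collection cannot be told apart at 0 h. Each line is 1 transduced population. The Ikaros vector also carries Ikzf1 exon sequence. At the Ikzf1 exon DHS with the largest Ikaros minus control difference at 24 h (chr11:11768688-11769688), the Ikaros libraries were at 5.18 to 6.62 and the control libraries at 1.78 to 3.32. The DHS was picked by that difference, so the gap is partly set by the choice, and whether the vector covers it was not checked. All values are log2 of a DNase signal that was normalized and corrected for unwanted variation, so that a difference of 1 is a doubling.

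Glucose enters lymphocytes through the facilitative transporters encoded by Slc2a1 (GLUT1) and Slc2a3 (GLUT3), and is trapped inside by the hexokinases Hk1 and Hk2, which phosphorylate it. Slc2a6 encodes GLUT6, a transporter of the same family. Txnip encodes an arrestin-like protein that promotes removal of GLUT1 from the membrane and is itself induced by glucose. Nr3c1 encodes the glucocorticoid receptor, whose activation lowers glucose use in lymphoid cells, and Cnr2 encodes the cannabinoid receptor CB2 found on B cells. Slc7a5 (LAT1) imports leucine and other large neutral amino acids as the light chain of a heterodimer whose heavy chain, CD98, is encoded by Slc3a2.

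The stretches of sequence that the main results turn on are given here from the GRCm38 reference, each read along the strand of its gene, with every match to CACGNG (the E-box core found in carbohydrate response elements) on either strand in capitals. The letters TGGGAA, a form of the core bound by Ikaros, were searched on both strands too and were not present in any of the 4 windows. This says only that these letters are not there, and other forms of the core were not searched. The first is the central 300 bases of the DHS in the Slc7a5 intron (chr8:121898487-121898786, minus strand), shown because it was lower in the Ikaros line from 12 h on. The next pair comes from adjoining DHS at the internal starts of Slc3a2, 104 bases of the first that lie outside annotated untranslated exon sequence (chr19:8712986-8713089, minus strand) and the central 300 bases of the second (chr19:8713237-8713536, minus strand, of which 195 are coding). The last is the 250 bases before the RefSeq start of Txnip (chr3:96557707-96557956, plus strand, GRCm38.p6), the most open promoter of a glucose uptake gene here.
Slc7a5 intron: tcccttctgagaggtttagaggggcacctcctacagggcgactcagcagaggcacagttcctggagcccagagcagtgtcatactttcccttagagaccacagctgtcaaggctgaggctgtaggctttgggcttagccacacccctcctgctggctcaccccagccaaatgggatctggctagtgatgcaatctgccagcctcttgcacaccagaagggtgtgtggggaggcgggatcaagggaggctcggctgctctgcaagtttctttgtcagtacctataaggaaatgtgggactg
Slc3a2 internal start, first DHS: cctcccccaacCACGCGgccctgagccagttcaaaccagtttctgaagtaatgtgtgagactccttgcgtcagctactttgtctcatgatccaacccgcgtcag
Slc3a2 internal start, second DHS: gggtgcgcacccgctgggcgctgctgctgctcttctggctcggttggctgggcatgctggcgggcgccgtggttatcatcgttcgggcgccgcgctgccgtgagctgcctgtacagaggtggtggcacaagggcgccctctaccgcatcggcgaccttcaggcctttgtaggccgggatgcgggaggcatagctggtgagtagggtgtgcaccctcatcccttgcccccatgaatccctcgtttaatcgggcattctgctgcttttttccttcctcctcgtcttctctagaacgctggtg
Txnip promoter: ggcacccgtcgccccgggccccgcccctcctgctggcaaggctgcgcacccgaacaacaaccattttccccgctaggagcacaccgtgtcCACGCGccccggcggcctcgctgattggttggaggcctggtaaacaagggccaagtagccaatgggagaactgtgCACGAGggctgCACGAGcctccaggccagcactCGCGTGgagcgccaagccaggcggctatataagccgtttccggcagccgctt

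The Txnip window held 4 matches to CACGNG, of which those starting at positions 166 and 177 (counted from 1 at the window's 5′ end) lay in the same orientation with 5 bases between them. A match to CACGNG was present in 23.5% of the 32851 RefSeq promoters cut to the same 250 bases, and a match to TGGGAA in 21.6%. The Slc3a2 stretch of 104 bases, cut from an end of its DHS and not from the centre, held 1 match to CACGNG. Among 104-base windows centred on the 52491 DHS wide enough to hold one, 11.4% had a match. For 300-base windows centred on 27521 DHS the shares were 27.5% for CACGNG and 24.1% for TGGGAA, and neither printed 300-base window held either. Of the 10 genes, 7 had a promoter in the RefSeq set. Besides Txnip, CACGNG was found 2 times before the internal Hk1 start and 1 time before Slc2a6, and not before Slc2a1, Hk2, Cnr2, Slc3a2 or the 5′-most Hk1 start. TGGGAA was found 1 time in an Slc3a2 promoter (chr19:8713898-8714147), which overlaps the last DHS of the internal cluster, and 1 time in a Cnr2 promoter (chr4:135911430-135911679), and in none of the other 7 promoters.

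By place, 19 of the 69 DHS lay within 1000 bp of an own start, 28 in introns, 12 upstream of the 5′ end and 10 downstream of the 3′ end. Their median width was 215 bp against 500 bp over all DHS, with a range of 110 to 742 bp. At most 200 bp wide were 34 of the 69 and 46.1% of all DHS, so the share of narrow DHS was near that of the table. Some starts were shared with neighbours. Within 1000 bp of the start of another gene lay both Hk1 start DHS (Hk1os) and that of Slc7a5 (BC048644). So did the DHS at the 5′-most Slc3a2 start (the noncoding gene Snhg1). A further 4 DHS lay within 1000 bp of the start of another gene only, a pair upstream of Slc2a3 at Gm5112, 1 in a Hk2 intron at Gm17034 and 1 downstream of Cnr2 at Fuca1. A DHS over the 5′-most end of Slc2a3 (chr6:122801137-122801716) and another over that of Nr3c1 (chr18:39519368-39519498) lie at starts outside the basic set, are counted as intronic, and differed between the lines by -0.38 ± 0.24 and 0.08 ± 0.39 at 24 h (SE, neither passed). Openness per promoter spanned most of the range of the table. The Txnip promoter (chr3:96557545-96558138) averaged 5.96 over the 36 libraries, above 99.2% of all DHS, and the DHS at the 5′-most Slc3a2 start (chr19:8723049-8723679) 5.90, above 99.1%. Hk1 reached 5.66 at its start DHS chr10:62340559-62340689, which lies at an internal start 39284 bp inside the gene, whereas no DHS within 1000 bp of its 5′-most start was listed. Hk2 averaged 5.21, the larger Nr3c1 start DHS 5.18, Slc2a1 4.97 and Slc7a5 4.70 at their most open start. The start DHS of Slc2a6, Cnr2 and Slc2a3 were near the middle of the table at 4.19, 4.17 and 4.01, above 63.1%, 62.5% and 53.4% of all DHS. Library medians over all DHS ran from 3.90 to 4.11. The SD between replicates, averaged over the 69 DHS, was 0.21 to 0.24 in the Ikaros line from 2 to 24 h, 0.41 in that line at 0 h and 0.27 to 0.44 in the control line.

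The label pre-B cell was checked against markers. Of 10 pre-B genes, 8 had a start DHS, at a median level of 5.20 with library values from 4.80 to 5.52. Start DHS were listed for 2 of 5 T cell genes (not Cd3e, Cd4 or Cd8a), 1 of 5 myeloid genes (not Csf1r, Itgam, Mpo or Cd14), 2 of 4 erythroid genes (not Hbb-bt or Epor) and 1 of 5 fibroblast and muscle genes (not Col1a2, Pdgfra, Myod1 or Myog), with library values from 1.90 to 4.90.

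The first question was where the lines differed at each time, tested with limma across all 52788 DHS with Benjamini-Hochberg adjustment. At 24 h the only 2 of the 69 DHS past an adjusted p of 0.05 were at the CD98 heterodimer genes, 1 at the light chain Slc7a5 and 1 at the heavy chain Slc3a2, and both were lower in the Ikaros line. The count of 2 in 69 stands beside 1.33% of all DHS. At 12 and 18 h the same DHS passed, again both lower, beside 1.31% and 0.699% of all DHS. At 6 h 1 of the 69 passed (Cnr2), beside 0.578%. None passed at 2 h by limma, beside 0.195%, and at an unadjusted p under 0.05 stood 17 of 69 (24.6%) and 10% of all DHS. At 0 h 10 passed, 5 higher and 5 lower in the Ikaros line, beside 12.9% of all DHS (7.81% higher and 5.04% lower), so that the share of members at 0 h was near that of the table. With every library centred on its median the 0 h calls were 7 higher and 3 lower, and of all DHS 5161 higher and 1731 lower (13.1%). With quantile normalization they were 2 higher and 3 lower, and of all DHS 2881 and 1525 (8.35%).

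**Figure D1:**
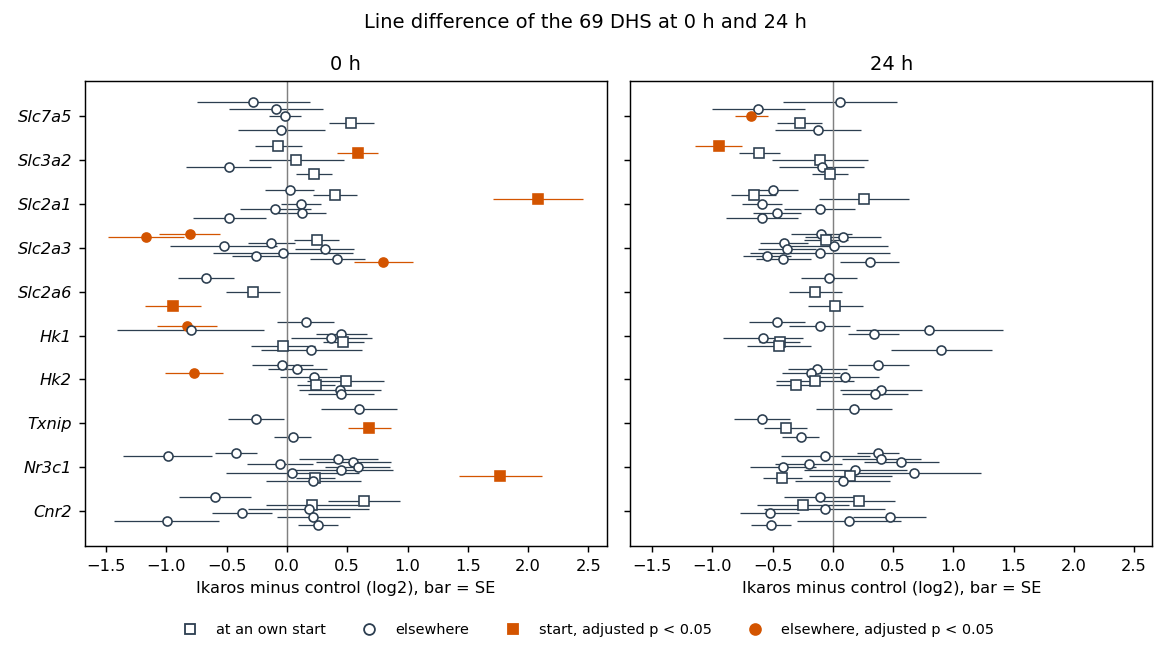
Difference between the Ikaros and the control line (log2, x axis) for each of the 69 DHS, by gene, at 0 h (left) and 24 h (right), where squares are DHS at an own start, circles other DHS, bars the SE and filled orange marks an adjusted p below 0.05. At 24 h only 1 DHS each of Slc7a5 and Slc3a2 is filled, while at 0 h the filled marks lie on both sides and the widest are Slc2a1 (2.08) and Nr3c1 (1.77).

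The Slc7a5 DHS (chr8:121898330-121898943) lies in an intron 9058 bp from the gene's 5′ end. At 0 h its values were 4.73, 4.58 and 4.88 in the Ikaros libraries and 4.91, 4.79 and 4.56 in the control libraries, which overlapped. At 2 h they were 4.47, 4.44 and 4.52 against 4.95, 4.93 and 4.60, and at 6 h 4.40, 4.61 and 4.34 against 5.02, 5.04 and 4.89. From 2 h on no Ikaros library reached a control library of the same time. At 12 h the values were 4.20, 4.42 and 4.42 against 4.96, 5.05 and 4.79, and at 18 h 4.44, 4.22 and 4.42 against 4.82, 5.07 and 5.05. At 24 h they were 4.25, 4.21 and 4.37 against 4.85, 5.03 and 4.98, and the Ikaros line held 0.625 times the control signal. The difference (SE 0.14, n = 3 a group) was -0.02 at 0 h, -0.35 at 2 h and -0.54 at 6 h (limma adjusted p = 0.057). It then passed with -0.59 at 12 h (limma adjusted p = 0.027), -0.62 at 18 h (0.025) and -0.68 at 24 h (0.011). Within batches 11, 12 and 13 the 24 h difference was -0.60, -0.82 and -0.61. The 24 h call was lost without Ikaros replicate 4 or 5 (-0.66 to -0.64, limma adjusted p = 0.064 to 0.066) and in a fit of the 24 h groups alone (limma adjusted p = 0.054). The 12 h call was lost without any library of that time but control replicate 6 (-0.62 to -0.51, limma adjusted p = 0.052 to 0.15). The 18 h call was lost without any but control replicate 4 (-0.66 to -0.55, limma adjusted p = 0.075 to 0.14). With replicate 4, 5 or 6 left out of all groups none of the 3 calls passed, and the 24 h difference was then -0.72 to -0.60 (limma adjusted p = 0.12 to 0.28). Quantile normalization ended the 12 h (-0.54) and 18 h (-0.49) calls, and removal of trends, described further on, that at 12 h (-0.42).

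At Slc3a2 a cluster of 3 DHS lies about internal starts of the gene, and a separate DHS lies at the 5′-most start beside Snhg1. The first of the cluster (chr19:8712912-8713089) overlapped between the lines at 0 h, with 5.71, 5.13 and 5.58 in the Ikaros libraries and 5.83, 5.64 and 5.17 in the control libraries. At 2 h its values were 5.39, 5.31 and 4.80 against 5.77, 5.69 and 5.86, and at 6 h 5.32, 4.95 and 5.09 against 6.05, 5.88 and 5.77. The lines no longer overlapped at these times or later. At 12 h the values were 4.93, 5.03 and 4.96 against 5.29, 5.94 and 6.07, and at 18 h 4.98, 5.23 and 4.85 against 5.78, 6.22 and 6.00. At 24 h they were 4.73, 5.17 and 4.80 against 5.96, 5.62 and 5.97, and the Ikaros line held 0.518 times the control signal. The difference (SE 0.20, n = 3 a group) was -0.07 at 0 h, -0.61 at 2 h and -0.78 at 6 h, none of which passed. It passed with -0.79 at 12 h (limma adjusted p = 0.039), -0.98 at 18 h (0.012) and -0.95 at 24 h (0.015). Within batches the 24 h difference was -1.23, -0.45 and -1.17. With the replicate block the 12 h call was lost (limma adjusted p = 0.052), which left 1 of 69 DHS called at 12 h, beside 0.904% of all DHS. The 24 h call was lost without control replicate 4 or 6 or Ikaros replicate 4 or 6 (-0.90 to -0.86, limma adjusted p = 0.057 to 0.096). The 18 h call was lost without control replicate 5 or Ikaros replicate 4 or 6 (-0.96 to -0.87, limma adjusted p = 0.061 to 0.096). The 12 h call was lost without any library of that time but control replicate 4 (-0.82 to -0.65, limma adjusted p = 0.092 to 0.14). With replicate 4, 5 or 6 left out of all groups none of the 3 calls passed, and the 24 h difference was then -1.20 to -0.81 (limma adjusted p = 0.13 to 0.21). Quantile normalization (-0.58) and removal of trends (-0.66) ended the 12 h call, and a fit of the 18 h groups alone that at 18 h (limma adjusted p = 0.058).

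The second DHS of the Slc3a2 cluster (chr19:8713130-8713643) began on the other side. At 0 h its Ikaros libraries were at 5.04, 5.14 and 5.21, all above the control libraries at 4.57, 4.71 and 4.36. The difference there was 0.59 ± 0.17 (SE, n = 3 a group, limma adjusted p = 0.025), and the call was lost without control replicate 4 or 6 or Ikaros replicate 5 or 6 (0.49 to 0.60, limma adjusted p = 0.054 to 0.13). At 24 h the Ikaros libraries were at 4.16, 4.49 and 4.26, all below the control libraries at 5.18, 4.67 and 4.90. The 24 h difference was -0.61 ± 0.17 (SE), which did not pass (limma adjusted p = 0.070). The change of the line difference from 0 to 24 h was -1.19 ± 0.25 (SE, limma adjusted p = 0.0098), and it passed when any 1 of the 12 libraries concerned was left out. It did not pass after trends were removed as described further on (-0.84, limma adjusted p = 0.067) in a fit of only these groups (limma adjusted p = 0.057), or with replicate 4 (-1.05, limma adjusted p = 0.058) or 6 (-1.05, limma adjusted p = 0.16) left out of all groups. This DHS alone of the 69 passed for change over the 6 times in the Ikaros line (F = 6.65, limma adjusted p = 0.024, beside 2.29% of all DHS). It alone passed for the interaction of line and time (F = 7.54, limma adjusted p = 0.028, beside 1.1%). The change over time was lost without Ikaros 0 h replicate 4, 5 or 6 or Ikaros 12 h replicate 4 or 6 (F = 4.63 to 5.74, limma adjusted p = 0.058 to 0.097). The interaction was lost without Ikaros 0 h replicate 4, 5 or 6 or control 0 h replicate 4 or 6 (F = 5.73 to 6.79, limma adjusted p = 0.056 to 0.11). Both were lost after removal of trends and with replicate 4, 5 or 6 left out of all groups, and the interaction with quantile normalization too. None of the 69 passed for change over time in the control line (limma, beside 0.148% of all DHS). At an unadjusted p under 0.05 there were 13 (18.8%), and 12.6% of all DHS.

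No other DHS at these loci passed at any time. The narrow last DHS of the cluster (chr19:8713779-8713909) differed by -0.11 ± 0.40 at 24 h, and the DHS at the 5′-most Slc3a2 start by -0.02 ± 0.15 with libraries at 6.05, 5.87 and 5.70 in the Ikaros line and 5.85, 6.04 and 5.80 in the control line. Whether the internal and the 5′-most start differed from each other was not tested. The Slc7a5 promoter (chr8:121907449-121908191) was at 4.87, 5.23 and 5.12 in the Ikaros line and 4.53, 4.86 and 4.22 in the control line at 0 h, a difference of 0.53 ± 0.18 (SE, limma adjusted p = 0.052). At 24 h it was at 4.45, 4.59 and 4.37 against 4.97, 4.90 and 4.36, a difference of -0.28 ± 0.18 (SE, limma adjusted p = 0.53), with the lines overlapping. Of the 5 Slc7a5 DHS, 4 had a difference below 0 at 24 h, as did all 5 at Slc3a2, without regard to any test. This stands beside 45 of the 69 DHS and 23245 of all 52788 DHS.

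**Figure D2:**
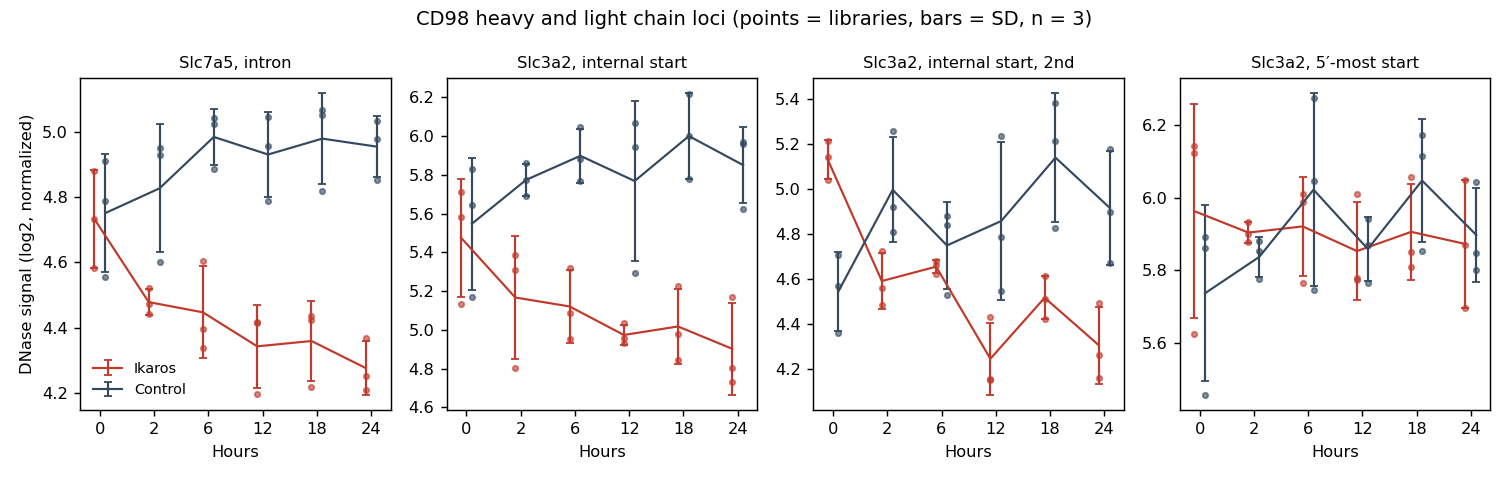
DNase signal (log2, y axis) over the 6 times (x axis, hours) at the Slc7a5 intron DHS, the first and second DHS of the internal Slc3a2 starts and the 5′-most Slc3a2 start, in the Ikaros (red) and the control line (grey blue), with 1 point a library and the mean ± SD of 3. The lines are apart from 2 h on at the Slc7a5 intron and the first Slc3a2 DHS, cross between 0 and 2 h at the second, and overlap at 24 h at the 5′-most start (difference -0.02).

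The transporters of glucose came next. The Slc2a1 promoter DHS (chr4:119108347-119109048) was at 5.42, 4.62 and 5.40 in the Ikaros line at 0 h, of which replicate 5 was low, and at 4.85, 4.85 and 4.55 in the control line. At 24 h it was at 4.70, 4.71 and 4.39 in the Ikaros line, all below the control libraries at 5.17, 5.25 and 5.36. The 24 h difference of -0.66 ± 0.19 (SE, n = 3 a group), 0.634 times the control signal, did not pass (limma adjusted p = 0.068). Nor did -0.68 at 12 h (0.060) or -0.60 at 18 h (0.13). Within batches the 24 h difference was -0.47, -0.54 and -0.97. All 7 DHS of the Slc2a1 locus had a difference below 0 at 12 h and 6 of 7 at 24 h, with a median of -0.50 at 24 h against 0.06 over all DHS, and none of them passed. Of the 69 DHS, 47 were below 0 at 12 h and 45 at 24 h, and of all 52788 DHS 23835 and 23245. A narrow DHS 399 bp from the start (chr4:119109110-119109325, 79.6% G and C) was at 5.84, 5.32 and 5.27 in the Ikaros line and 3.83, 4.33 and 2.03 in the control line at 0 h, which did not overlap. The difference was 2.08 ± 0.37 (SE, limma adjusted p = 0.00092), and at 24 h the lines overlapped there (0.26 ± 0.37).

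Slc2a3 had 10 DHS, of which the start DHS (chr6:122742468-122743049) differed by 0.25 ± 0.18 at 0 h and -0.06 ± 0.18 at 24 h. The largest 24 h difference of the locus was upstream (chr6:122804359-122804872), where the Ikaros libraries were at 4.38, 4.09 and 3.97 and the control libraries at 4.93, 4.80 and 4.35. That difference of -0.54 ± 0.20 did not pass (limma adjusted p = 0.17). At 0 h 3 others passed. The intron DHS chr6:122740060-122740199 was at 4.38, 3.33 and 4.57 in the Ikaros line, all below 4.95, 5.58 and 5.25 in the control line (-1.17 ± 0.31, limma adjusted p = 0.015). That call was lost without control replicate 5 or 6 or Ikaros replicate 5 (-1.17 to -0.78, limma adjusted p = 0.051 to 0.11). The downstream DHS chr6:122719915-122720420 was lower too, at 2.71, 2.64 and 3.37 against 3.93, 3.11 and 4.09 (-0.81 ± 0.25, limma adjusted p = 0.034), though the lines overlapped. It was lost without control replicate 4 or 6 or Ikaros replicate 4 or 5 (-0.71 to -0.62, limma adjusted p = 0.11 to 0.19). The upstream DHS chr6:122811376-122811541, at the start of Gm5112, was higher with overlap, at 5.86, 5.33 and 5.76 against 4.96, 5.36 and 4.25 (0.80 ± 0.25, limma adjusted p = 0.031). It was lost without control replicate 4 or 6 or Ikaros replicate 4 or 6 (0.50 to 0.85, limma adjusted p = 0.053 to 0.25). At Slc2a6 the start DHS (chr2:27027778-27028312) differed by -0.28 ± 0.22 at 0 h and -0.15 ± 0.22 at 24 h. A narrow DHS 825 bp from the Slc2a6 start (chr2:27028823-27028953) was lower in the Ikaros line at 0 h, at 3.95, 3.29 and 4.16 against 4.54, 4.77 and 4.92. The difference was -0.95 ± 0.23 (SE, limma adjusted p = 0.0080) and was 0.02 at 24 h. The call was lost without control replicate 6 or Ikaros replicate 5 (-0.86 to -0.69, limma adjusted p = 0.053 to 0.060).

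At the hexokinases no DHS passed after 0 h. The Hk2 promoter (chr6:82774250-82774826) was at 5.02, 5.09 and 4.85 in the Ikaros line at 24 h, all below the control libraries at 5.44, 5.19 and 5.26, a difference of -0.31 ± 0.16 (SE, n = 3 a group, limma adjusted p = 0.37). At 0 h it overlapped between the lines (5.51, 5.17 and 5.49 against 5.06, 5.53 and 4.86). The other Hk2 start DHS (chr6:82773519-82773649) differed by 0.49 ± 0.32 at 0 h and -0.15 ± 0.32 at 24 h, and the largest 24 h difference was upstream (chr6:82780610-82780740, 0.40 ± 0.34, limma adjusted p = 0.65). The wider Hk1 start DHS (chr10:62339947-62340522) was at 5.06, 5.17 and 5.17 in the Ikaros line at 24 h, all below the control libraries at 5.55, 5.49 and 5.68 (difference -0.44 ± 0.17, limma adjusted p = 0.19), and the narrower one differed by -0.45 ± 0.26. The largest 24 h difference at Hk1 was upstream (chr10:62381075-62381197), with 3.65, 3.56 and 3.50 against 2.36, 2.44 and 3.22, and did not pass (0.90 ± 0.42, limma adjusted p = 0.31). Intron DHS of both genes were lower in the Ikaros line at 0 h. At Hk1 (chr10:62275155-62275664) the values were 3.57, 4.32 and 3.91 against 4.97, 4.62 and 4.71 (difference -0.83 ± 0.25, limma adjusted p = 0.028). At Hk2 (chr6:82755478-82755628) they were 3.50, 3.85 and 3.09 against 4.35, 4.12 and 4.28 (difference -0.77 ± 0.24, limma adjusted p = 0.034). Each of these calls was lost without control replicate 4 or 6 or Ikaros replicate 4 or 6, with limma adjusted p of 0.058 to 0.13 at Hk1 (-0.86 to -0.65) and 0.071 to 0.16 at Hk2 (-0.78 to -0.57).

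The regulators of glucose uptake were led by the Txnip promoter. At 0 h it was at 6.50, 6.06 and 6.35 in the Ikaros line, all above the control libraries at 5.71, 5.84 and 5.31, a difference of 0.68 ± 0.18 (SE, n = 3 a group, limma adjusted p = 0.012). That call was lost without control replicate 6 or Ikaros replicate 4 (0.53 to 0.58, limma adjusted p = 0.063 to 0.10). At 24 h the Ikaros libraries were at 5.91, 5.81 and 5.42, all below the control libraries at 6.04, 6.19 and 6.08, a difference of -0.39 ± 0.18 (SE) that did not pass (limma adjusted p = 0.29). The largest 24 h difference at Txnip was upstream (chr3:96551248-96551478), with 4.34, 4.15 and 4.09 against 4.58, 4.92 and 4.84 (-0.59 ± 0.23, limma adjusted p = 0.21). At Nr3c1 the wider start DHS (chr18:39491436-39491957) was at 4.93, 5.07 and 4.75 in the Ikaros line at 24 h, all below the control libraries at 5.32, 5.41 and 5.27 (-0.42 ± 0.16, limma adjusted p = 0.20). A narrow Nr3c1 start DHS (chr18:39489889-39490046, 79.1% G and C) was at 6.12, 5.07 and 5.42 against 3.55, 4.08 and 3.68 at 0 h (1.77 ± 0.34, limma adjusted p = 0.0017), and at 5.04, 4.40 and 4.76 against 5.02, 4.27 and 4.48 at 24 h, where the lines overlapped. The largest 24 h difference at Nr3c1 was in an intron (chr18:39484006-39484136, 0.68 ± 0.55, limma adjusted p = 0.63).

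The 2 Cnr2 start DHS (chr4:135895294-135895451 and chr4:135896306-135896436) differed by 0.22 ± 0.30 and -0.25 ± 0.38 at 24 h. A narrow intron DHS of Cnr2 (chr4:135898563-135898701) was lower in the Ikaros line at 6 h, with 4.18, 4.03 and 4.18 against 4.80, 5.30 and 5.50. The difference was -1.07 ± 0.25 (SE, limma adjusted p = 0.036), 0.476 times the control signal. It did not pass with the replicate block (limma adjusted p = 0.054), which left 0 of 69 DHS called at 6 h, beside 0.417% of all DHS. The call was also lost without any 1 of 5 of its 6 libraries other than control replicate 4 (-1.10 to -0.92, limma adjusted p = 0.099 to 0.16). Nor did it pass with quantile normalization (-0.93), after removal of trends (-0.94), in a fit of the 6 h groups alone or with any replicate left out of all groups (-1.30 to -0.95). At 24 h it had the largest difference of the locus (-0.52 ± 0.25, limma adjusted p = 0.32).

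**Figure D3:**
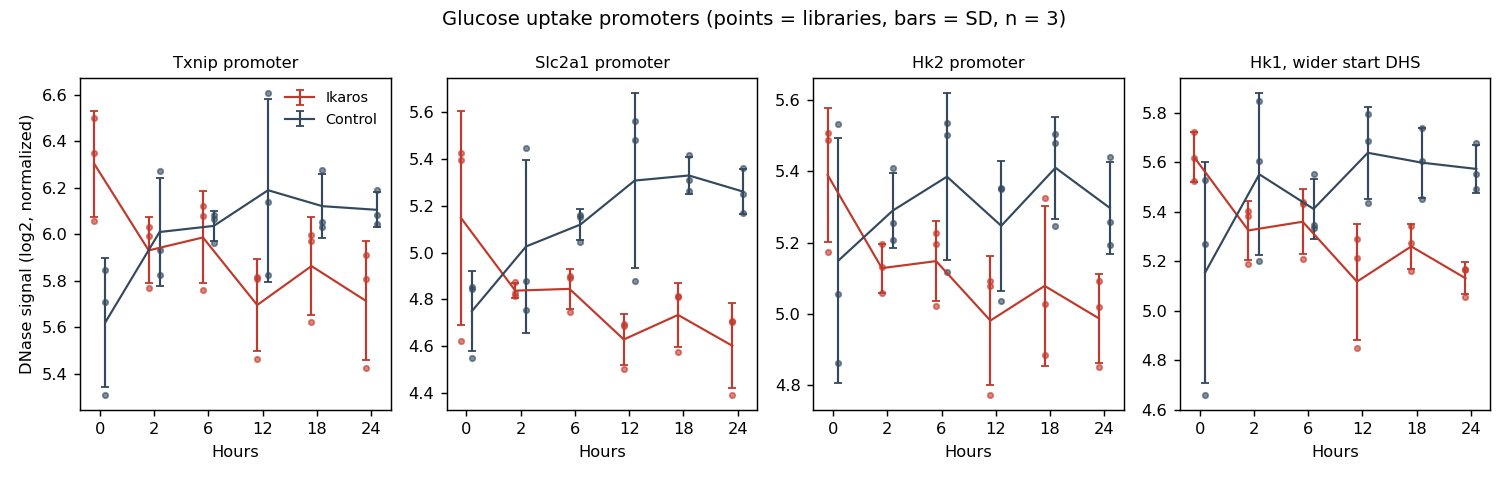
DNase signal (log2, y axis) over the 6 times (x axis, hours) at the promoter DHS of Txnip, Slc2a1 and Hk2 and the wider start DHS of Hk1 in the Ikaros (red) and the control line (grey blue), with 1 point a library and the mean ± SD of 3. In all 4 panels the Ikaros mean is above the control mean at 0 h and below it at 24 h, and none of these 24 h differences passed the test. Of all 13657 start DHS of the table, 10508 had a line difference above 0 at 0 h and 7754 one below 0 at 24 h.

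The change of the line difference from 0 to 24 h asked how the lines moved apart net of where they began. Of the 69 DHS, 9 passed, 8 lower and 1 higher, beside 6.26% of all DHS (3.4% lower and 2.85% higher), and 6 of these 9 were at an own start. With every library centred on its median 12 passed and all were lower, while 978 of all DHS passed as higher and 3358 as lower (8.21% in all). With quantile normalization 1 was higher and 3 lower, and of all DHS 568 and 777 (2.55%). Over the 19 start DHS of the 10 genes the median change was -0.63 with 17 below 0, against a median of -0.42 over all 13657 start DHS of the table, of which 1374 passed as lower. Of the 3 lists of other genes described further on, start DHS of 2 were close to the median of the 19. They had -0.65 and 22 of 22 below 0 for other regulators and -0.59 and 16 of 16 below 0 for other amino acid transporters. Start DHS of other glucose transporters, hexokinases and entry steps moved less, with -0.26 and 8 of 10 below 0, and 0 passed. The change was -1.07 ± 0.25 at the Txnip promoter (SE, limma adjusted p = 0.016), -1.06 ± 0.26 at the Slc2a1 promoter (limma adjusted p = 0.021) and -0.91 ± 0.24 at the wider Hk1 start (limma adjusted p = 0.026). At Txnip the call was lost without control 0 h replicate 6 (-0.92, limma adjusted p = 0.053), with replicate 5 or 6 left out of all groups (-1.31 and -0.76), with quantile normalization (-0.60) and in a fit of only these groups (limma adjusted p = 0.067). At Slc2a1 it was lost without control 0 h replicate 6, Ikaros 0 h replicate 4 or Ikaros 24 h replicate 6 (-0.96 to -0.92, limma adjusted p = 0.050 to 0.061), with replicate 4 or 6 left out of all groups (-1.06 and -0.68) and in a fit of only these groups (limma adjusted p = 0.087). At Hk1 it was lost without control 0 h replicate 6, control 24 h replicate 4 or 6 or Ikaros 24 h replicate 4 (-0.92 to -0.66, limma adjusted p = 0.051 to 0.089), with any replicate left out of all groups (-1.21 to -0.58), with quantile normalization (-0.53) and in a fit of only these groups (limma adjusted p = 0.097). The narrow G and C rich DHS of Slc2a1 (-1.82 ± 0.53, limma adjusted p = 0.038) and Nr3c1 (-1.62 ± 0.49, limma adjusted p = 0.044) and the Slc7a5 intron DHS (-0.66 ± 0.19, limma adjusted p = 0.038) passed as well. The remaining calls were downstream DHS. The one at the start of Fuca1 near Cnr2 (chr4:135920393-135920980) was lower (-0.77 ± 0.24, limma adjusted p = 0.049). The one beyond Nr3c1 (chr18:39409539-39410070) was higher (0.80 ± 0.25, limma adjusted p = 0.047), and there the Ikaros libraries went from 4.19, 4.50 and 4.13 at 0 h to 5.10, 4.98 and 4.86 at 24 h.

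These changes use the 0 h libraries, which were collected apart. With the replicate block 5 of the 9 remained past the threshold, beside 4.81% of all DHS. Those that did not were the Slc7a5 intron (limma adjusted p = 0.050), the narrow Nr3c1 start (limma adjusted p = 0.054), the Fuca1 DHS (limma adjusted p = 0.060) and the DHS beyond Nr3c1 (limma adjusted p = 0.061). Each of those 4 calls was also lost without most single libraries of the 12. At the Slc7a5 intron only the loss of control 0 h replicate 4 or 5 or Ikaros 0 h replicate 5 kept it (otherwise -0.71 to -0.56). At the narrow Nr3c1 start only replicate 5 of control 0 h, control 24 h or Ikaros 0 h could be left out (otherwise -1.78 to -1.33). At Fuca1 this held for replicate 5 of either line at 0 h (otherwise -0.80 to -0.56), and beyond Nr3c1 for these and control 24 h replicate 6 (otherwise 0.71 to 0.86). The narrow Slc2a1 call was lost without control 0 h replicate 6, control 24 h replicate 4 or 6, Ikaros 0 h replicate 4 or any Ikaros 24 h library (-1.98 to -1.14). After smooth trends with level, G and C content and width were removed from each library, 0 of the 69 passed at 0 h and 0 for the change, for which 0.33% of all DHS then passed. The change stood at -0.84 at the second Slc3a2 DHS, -0.52 at the Txnip promoter, -0.43 at the Slc2a1 promoter and -0.10 at the wider Hk1 start. The 24 h calls at Slc7a5 (-0.54, limma adjusted p = 0.034) and Slc3a2 (-0.82, limma adjusted p = 0.017) passed there, and those at 12 h did not. With 0 h left aside, none of the 69 passed by limma for the change of the line difference from 2 to 24 h, beside 0% of all DHS (at an unadjusted p under 0.05, 3 of the 69 and 2.85% of all DHS). None passed for 24 against 2 h in the Ikaros line, beside 0% (unadjusted, 0 of the 69 and 0.0701% of all), or in the control line, beside 0.00947% (unadjusted, 5 of the 69 and 6.52% of all). The Ikaros share was far below what p under 0.05 gives where nothing changes. The fit pools the spread of all 12 groups, and replicates varied less there (mean SD over all DHS at 2 h 0.24, control line 0.48). That test could hardly pass, so absence of change cannot be read from it.

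**Figure D4:**
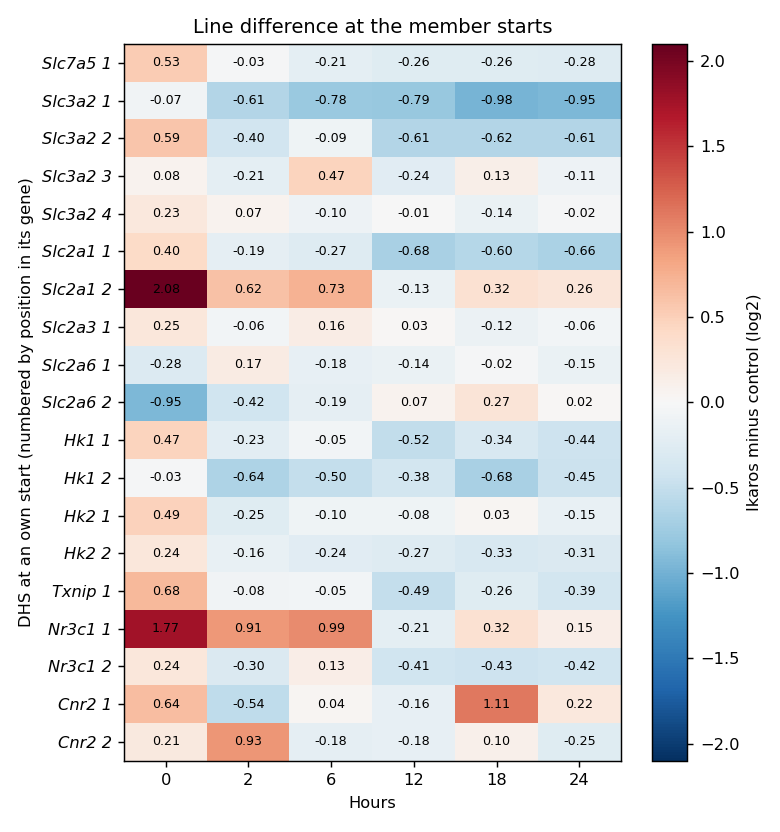
Line difference (Ikaros minus control, log2, colour and printed value) at the 19 DHS within 1000 bp of an own start (rows, numbered by position within a gene) at the 6 times (columns, hours). At 0 h 15 of the 19 are above 0 and at 24 h 15 are below 0, and the rows Slc2a1 2 and Nr3c1 1, the narrow DHS rich in G and C, fall from 2.08 and 1.77 to 0.26 and 0.15.

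At the start DHS as a group the line difference moved from a median of 0.25 at 0 h, with 15 of 19 above 0, to -0.25 at 24 h, with 15 of 19 below 0. The same medians over all start DHS of the table were 0.34 and -0.05, with 10508 of 13657 above 0 at 0 h and 7754 below 0 at 24 h. For the 50 other DHS of the 10 genes the medians were 0.00 and -0.10. The groups of the table share structure, since the 12 group means span only 6 of 11 possible dimensions in the deposited values, and counts of DHS at different times are therefore not independent of each other.

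Other genes of the same pathways were counted by the same locus rule. Of 43 DHS at other glucose transporters, hexokinases and entry steps, 0 passed at 24 h by limma (7 at an unadjusted p under 0.05), and 2 passed for the change from 0 to 24 h, 1 lower and 1 higher. Of 59 DHS at other amino acid transporters, 2 passed at 24 h and both were lower, and 7 passed for the change, 6 of them lower, including 5 of their 16 start DHS. Of 75 DHS at other regulators of nutrient uptake such as the insulin receptor, mTOR and AMPK genes, 1 passed at 24 h as lower and 8 for the change, all lower. The medians of the 24 h difference in these 3 lists were -0.01, -0.04 and -0.10, against -0.11 over the 69 DHS and 0.06 over the table. Marker lists had medians of -0.16 for pre-B genes (35 of 50 DHS below 0), -0.32 for T cell genes (15 of 17), 0.31 for myeloid (3 of 8), 0.15 for erythroid (3 of 8) and 0.25 for fibroblast and muscle genes (3 of 9), and their part in the results was not tested.

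Across the 36 libraries, which share 2 lines, 6 times and the correction, the promoters of the 10 genes varied together to different degrees. Taking the most open start DHS of each gene, Pearson's r was highest between Slc2a1 and Txnip (0.80), then Slc2a1 and Hk2 (0.75) and Txnip and Nr3c1 (0.72). It was 0.59 between Slc7a5 and the 5′-most Slc3a2 start. The r of Slc2a6 with the others ran from -0.39 (Slc7a5) to 0.16, and that of Cnr2 from -0.31 (Hk1) to 0.16. The promoters of other genes with the most similar profile were those of Mad1l1 (0.90), Gm12915 (0.89) and Maml1 (0.89) for Slc2a1, and Pik3r3 (0.88), Nespas (0.87) and Dedd (0.87) for Txnip. For Hk2 they were Frat1 (0.85), the mitochondrial citrate carrier Slc25a1 (0.83) and Camta1 (0.83), and for Slc7a5 9430037G07Rik (0.78), Srsf7 (0.78) and Nubp1 (0.77). These are descriptions of shared profiles over libraries that are not independent.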

How the data were processed

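DNase-seq was measured in 36 libraries of B3 cells, 3 for each of 2 lines at 6 times. Per the study's methods and the submitters' processing notes, reads were trimmed to 36 bp and mapped to mm10 with Bowtie2 (the methods) or Bowtie (the notes), narrow and broad peaks were called per library with HOMER and kept where all 3 replicates of a time had one, and reads were counted with bedtools. The deposited values are log2 signal per DHS, which the authors scaled by length and depth (RPKM), normalized by TMM and corrected with ARSyN for unwanted variation that matched no known factor. Raw counts were not used here and the exact depth of each library is not given in the sources used here, so values carry no counting interval, and ARSyN may lower the spread between replicates. Coordinates follow the deposited table. GENCODE vM21 was used for genes and the GRCm38 reference for sequence, and GC content was read from it.

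Group means were fitted with limma 3.58.1 (R 4.3.3) over all 52788 DHS and 36 libraries with an intensity trend, two-sided, with Benjamini-Hochberg adjustment and a threshold of 0.05. Replicates are repeats of the time course, and the labels tie replicate number to batch, so numbers pair the libraries from 2 to 24 h. The 0 h libraries carry the same numbers and batches but were collected apart, so the pairing may not hold for them. Deviations of libraries of the same time and number correlated from -0.175 to 0.183, above 0.1 in 3 of 18 pairs. Named DHS were those at an own start, those past the threshold in any test, and the one with the largest 24 h difference per gene. The genes and lists were chosen with earlier results of these data known. Alternatives were quantile normalization, median centring, subtraction of smooth trends in level, GC and width, a replicate block, library weights per group, no intensity trend, only the groups compared, leaving out the 25% of DHS lowest in mean level, a 2 kb extension, and leaving out replicates and single libraries. On simulated data, 200 of 52788 DHS changed by 2 on the log2 scale gave 163 recovered and 6 false calls for the 24 h difference, and 119 and 10 for the change from 0 to 24 h. That change is larger than any line difference called after 0 h, so recovery at the reported sizes is not shown by it. The simulated noise was independent between libraries with the same spread in all groups, unlike the deposited values, so the error rate there is not shown either.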

Additional observations from a re-analysis of the deposited data

Results flagged for a closer look

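The line difference changed between 0 and 24 h, by a test of the change itself, at 9 of the 69 DHS. It went down by the listed log2 amounts at the second Slc3a2 DHS (-1.19), the promoters of Txnip (-1.07) and Slc2a1 (-1.06), the wider Hk1 start (-0.91), the Slc7a5 intron (-0.66), the narrow DHS of Slc2a1 (-1.82) and Nr3c1 (-1.62) and the Fuca1 start near Cnr2 (-0.77), and up at the DHS beyond Nr3c1 (0.80). The second Slc3a2 DHS also differed between the lines in its course over the 6 times (interaction F = 7.54). The 0 h cells were collected apart from the other times, and the part of that in these changes cannot be told apart from induction.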

How the results depend on the processing

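The numbers of the 69 DHS past the threshold moved with the processing. Quantile normalization gave 5 DHS at 0 h, 0 at 6 h, 1 each at 12 h and 18 h, 4 at 24 h, 4 for the change from 0 to 24 h, 3 for change over time in the Ikaros line and 0 for the interaction, where 8.35%, 0.532%, 0.604%, 0.337%, 1.55%, 2.55%, 2.43% and 0.369% of all DHS passed in that order. Removing smooth trends gave 0 at 0 h, 0 at 12 h, 0 for the change, 0 for change over time in the Ikaros line and 0 for the interaction (2.83%, 0.292%, 0.33%, 0.94% and 0.017% of all DHS). At 6 h 1 passed there (0.43% of all DHS), a DHS other than the Cnr2 one. Library weights per group gave 2 DHS for 0 h, 3 for 6 h, 6 for 18 h and 7 for 24 h (2.8%, 1.16%, 3.07% and 6.12% of all DHS), and 4 for the change and 0 for the interaction (3.23% and 0.0777%). A fit of only the groups compared gave 0 for each of 0, 6, 12 and 18 h, 1 for 24 h, 0 for the change and 5 for change over time in the Ikaros line (at most 0.0606% of all DHS but for 1.33% at 24 h and 7.52% over time). Median centring gave 1 at 2 h and 2 for the interaction (0.275% and 1.6% of all DHS). The replicate block gave 0 at 6 h, 1 at 12 h and 5 for the change (0.417%, 0.904% and 4.81% of all DHS) and moved no other of these counts by over 1.5 times. Leaving out 1 library or replicate number at a time gave 2 to 11 for 0 h, 0 to 2 for 2 h, 0 to 1 for 6 h, 0 to 3 for 12 h, 0 to 2 for 18 h, 0 to 3 for 24 h, 0 to 13 for the change from 0 h, 0 for that from 2 h, 0 to 1 over time in the Ikaros line, 0 to 2 in the control line, 0 for 24 against 2 h in the Ikaros line, 0 to 1 in the control line, and 0 to 4 for the interaction. Of all DHS these fits called 1520 to 8034 for 0 h, 13 to 501 for 2 h and 6 to 455 for 6 h. They called 8 to 686 for 12 h, 5 to 289 for 18 h and 10 to 298 for 24 h. For the change they called 151 to 5306 from 0 h and 0 to 5 from 2 h. Over time they called 0 to 1188 in the Ikaros line and 26 to 649 in the control line. For 24 against 2 h they called 0 in the Ikaros line and 0 to 143 in the control line, and for the interaction 1 to 1282. No called value changed direction under any of these alternatives. Other scalings moved the median over all DHS by up to -0.168. The causes of these shifts were not tested. A group of 3 libraries and the unknown exact depth of each library limit what can be seen.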
